A study of Mus musculus with 6 samples.

Results

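Transcripts of the proteasome were compared between livers of C57BL/6 mice of 2 genotypes. All mice had received 300 mg/kg of acetaminophen (APAP), a drug that damages hepatocytes in overdose, by intraperitoneal injection, and livers were taken after 24 h. The members were all genes of the deposited table whose symbol is Psma, Psmb, Psmc, Psmd, Psme, Psmf or Psmg followed by a number, together with Pomp, 49 of 28476 genes. They comprise subunits of the 20S core and the 19S regulatory particle, alternative activators, an inhibitor and assembly factors. The control group held 3 libraries labelled Flox and the other group 3 libraries labelled Nedd4 HepKO, here called HepKO. Both groups were fasted overnight and treated, so every difference is between treated genotypes, and livers without the drug are not analysed here. The labels do not name the Cre driver, the floxed allele of the Flox mice, the age or the sex, nor whether libraries come from separate animals, and the spread that p-values rest on may therefore be technical. NEDD4-1, the product of Nedd4, is a ubiquitin ligase, and the series title concerns its part in this injury.

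The 26S proteasome degrades proteins that carry ubiquitin chains. Its 20S core is a barrel of outer rings of alpha subunits, which form the gate, and inner rings of beta subunits, of which Psmb5, Psmb6 and Psmb7 encode the catalytic ones. In leukocytes and after interferon signalling, Psmb8, Psmb9 and Psmb10 take the place of Psmb5, Psmb6 and Psmb7 and form the immunoproteasome, which supplies peptides for MHC class I. The 19S particle has a base, whose Psmc ATPases unfold substrates, and a lid, whose Psmd14 subunit removes ubiquitin. In hepatocytes, as in other cells, many proteasome genes are induced together by NFE2L1 when proteolysis is impaired.

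Levels are FPKM, a measure of fragments scaled to the length of the transcript and to the library. Nedd4, the gene named in the genotype label, had 2.18, 2.59 and 2.23 FPKM in Flox and 0.618, 0.666 and 0.565 in HepKO livers (limma adjusted p = 0.0015). Libraries summed to between 456176 and 496303 FPKM, and their depth is unknown. The mitochondrial share of FPKM was 24.6% in HepKO replicate 1 and 16.7% to 18.3% in the other 5 libraries. Of 7 hepatocyte markers measured, 6 did not pass and the fibrinogen gene Fgb rose, and their summed level was 38073 to 44802 FPKM in Flox and 42773 to 47707 FPKM in HepKO livers. Most of that sum was Alb, with means of 25956 and 26922 FPKM. In Ttr, Apoc3 and Cyp2e1 every HepKO library lay below every Flox library (1.33-fold, 1.26-fold and 1.20-fold lower). In Fgb and Apoa1 every HepKO library lay above, and in Alb and Serpina1a the groups overlapped. All 7 tested pan-leukocyte markers and all 7 tested neutrophil markers rose. The pan-leukocyte markers Cd52 and Lcp1 kept their calls in 2 and 1 of the 6 fits that left out a library, and the other 12 in all 6. Markers of other cells moved in both directions. Of 6 endothelial markers Cdh5, Lyve1 and Pecam1 rose 3.44-fold, 2.45-fold and 1.73-fold and Kdr fell 2.85-fold. The cholangiocyte marker Sox9 rose 4.31-fold, as 1 of 3 tested, and the stellate cell marker Dcn rose 1.79-fold, as 1 of 6. The Pecam1 and Dcn calls were each kept in 1 of the 6 fits and the other 4 in all 6. The part of these cells in the proteasome levels was not tested. In whole liver, fewer cells of a type and less RNA per cell cannot be told apart.

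Proteasome transcripts were mostly less abundant in HepKO livers, by modest amounts. Of the 49 members, 47 had a mean of at least 0.5 FPKM and were tested. Of these, 13 fell, 0 rose and 34 did not pass at a Benjamini-Hochberg adjusted p of 0.05 (limma, over all 12712 genes tested). Over all tested genes 11.0% were called lower, 9.33% higher and 20.3% either way, and of the tested members 27.7% were called lower. Without adjustment, 25 members had a p under 0.05 (53.2%, against 35.7% of all tested genes). Of these, 24 were lower (51.1%, against 20.9%) and Psmd8 was higher. Among the 36 members at 10 FPKM or more, 12 fell (33.3%) and 0 rose, against 18.7% lower and 9.52% higher of all 3246 tested genes at that level. In 23 of these 36 every HepKO library lay below every Flox library (63.9%, against 34.2% of genes at that level). The log2 fold change, on the log2(FPKM + 1) scale, was negative for 43 of the 47 members, or 91.5%, against 56.6% of all tested genes. Its median was -0.40 over the members and -0.06 over all tested genes, and it ran from -0.997 for Psma5 to 0.35 for Psmd8. In 28 members every HepKO library lay below every Flox library (59.6%, against 25.2% of all tested genes), in 1 member, Psmd8, every HepKO library lay above (17.2% of all tested genes), and in 18 the groups overlapped.

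**Figure D1:**
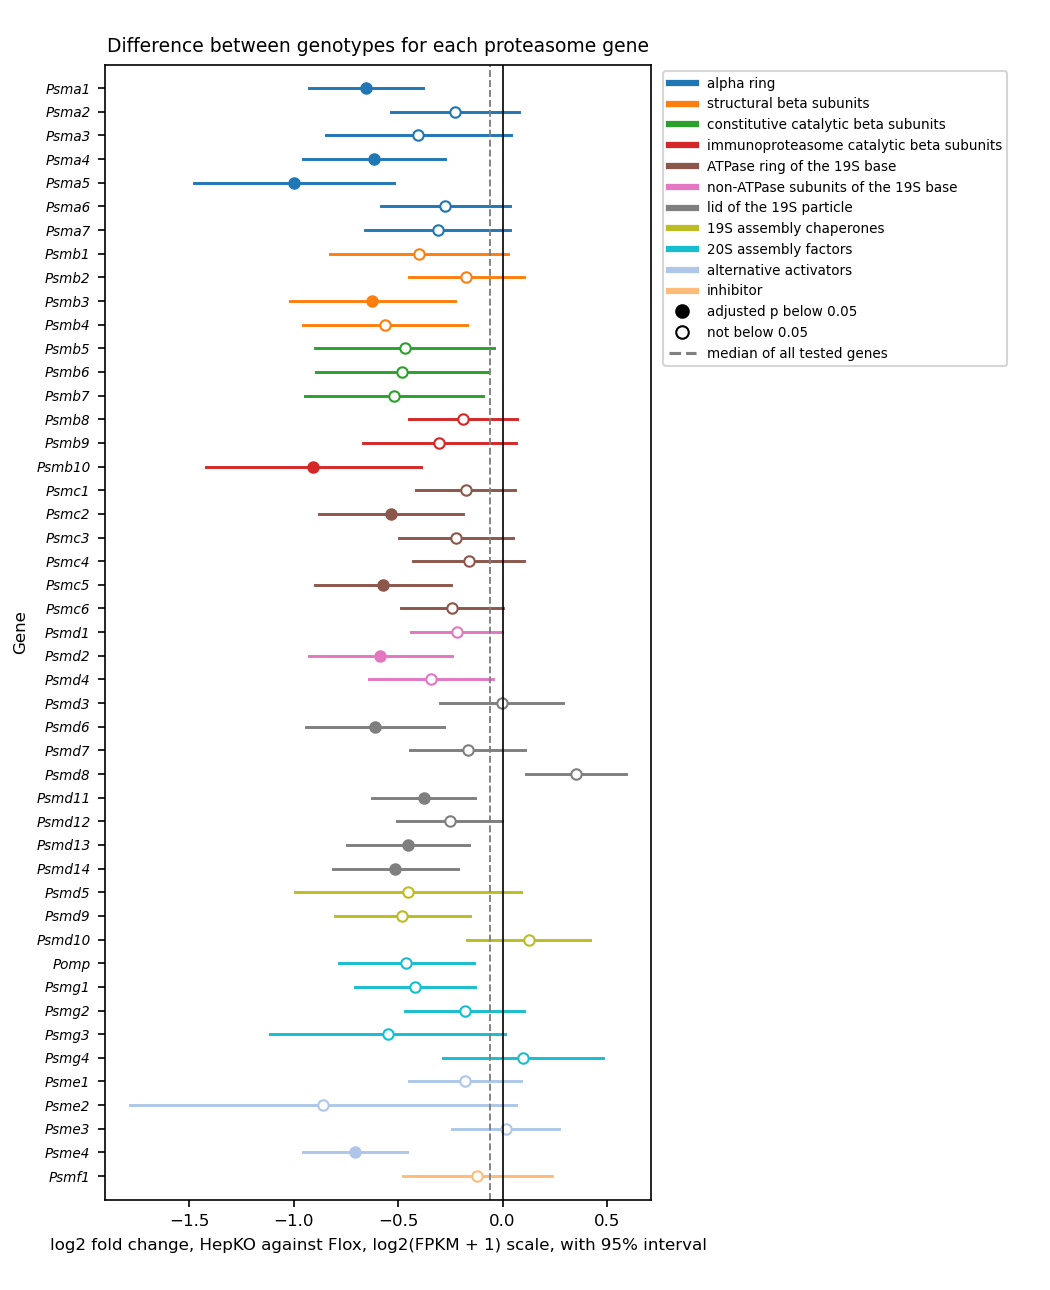
Log2 fold change of each tested proteasome gene on the log2(FPKM + 1) scale (horizontal axis), HepKO against Flox, with its 95% limma interval, coloured by role, and the median of all tested genes as a dashed line. Filled points have an adjusted p below 0.05. The 13 filled points all lie to the left of 0, and Psmd8 at 0.35 is the point farthest to the right.

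The number of calls depended on single libraries. With Flox replicate 1, 2 or 3 left out in turn, 4, 3 and 2 members were called lower, and with HepKO replicate 1, 2 or 3 left out, 5, 2 and 14. As shares, members against all tested genes were 8.51% against 9.12%, 6.38% against 4.98% and 4.26% against 5.38% without Flox replicate 1, 2 and 3. For HepKO replicate 1, 2 and 3 they were 10.6% against 6.14%, 4.26% against 4.84% and 29.8% against 10.3%. In 3 of the 6 fits, those without Flox replicate 1, Flox replicate 3 or HepKO replicate 2, the members' share of lower calls was below that of all genes. Psma1 and Psme4 kept their calls in all 6 of these fits. The sign was more stable, since 42 members were negative in all 6 fits, Psmd8 and Psmd10 were positive in all 6, and Psmd3, Psmg4 and Psme3 changed sign. The authors' deposited table, made with a test that the sources used here do not state, has 8 members with a q-value below 0.05, all lower in HepKO and all among the 13: Psma1, Psma4, Psma5, Psmb3, Psmb10, Psmd2, Psmd6 and Psme4. Of all 28476 genes in the authors' deposited table, 3.57% were lower at that threshold. Only 12712 of those genes reached a mean of 0.5 FPKM, against 47 of the 49 members, so that share is not a like base for the members.

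Scaling moved the balance of calls over all genes. After median-ratio rescaling 1505 genes were higher and 1032 lower, against 1186 and 1397 as deposited, and the median of all genes shifted from -0.06 to 0.02. The members' median was then -0.29, so its distance from the median of all genes was -0.31, against -0.34 as deposited. With that scaling 10 members fell, Psmd8 rose, and Psmc2, Psmd13 and Psmd11 were no longer called (limma adjusted p = 0.053, 0.068 and 0.12).

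HepKO replicate 1 had the lowest level of its group in 36 of the 47 members, or 76.6%, against 47.9% of all tested genes, and HepKO replicate 3 the highest in 39, or 83.0%, against 48.1%. Among Flox livers, replicate 2 was the lowest in 37 members, or 78.7%, against 35.3%. Summed over the 49 members, the level was 2272, 2022 and 2284 FPKM in Flox and 1493, 1710 and 1891 in HepKO livers, a mean 22.6% lower. The groups did not overlap in this sum. The library with the lowest sum is the one with the highest mitochondrial share, whose part in the difference was not tested. Without HepKO replicate 1 the members' median was -0.28, against -0.04 for all genes, and 5 members fell. With every library kept and scaled to a common sum without abundant and mitochondrial genes, 14 members fell (29.8%, against 9.68% of all genes). Psmd8 then rose, and the members' median was -0.34, against -0.02 for all genes.

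**Figure D2:**
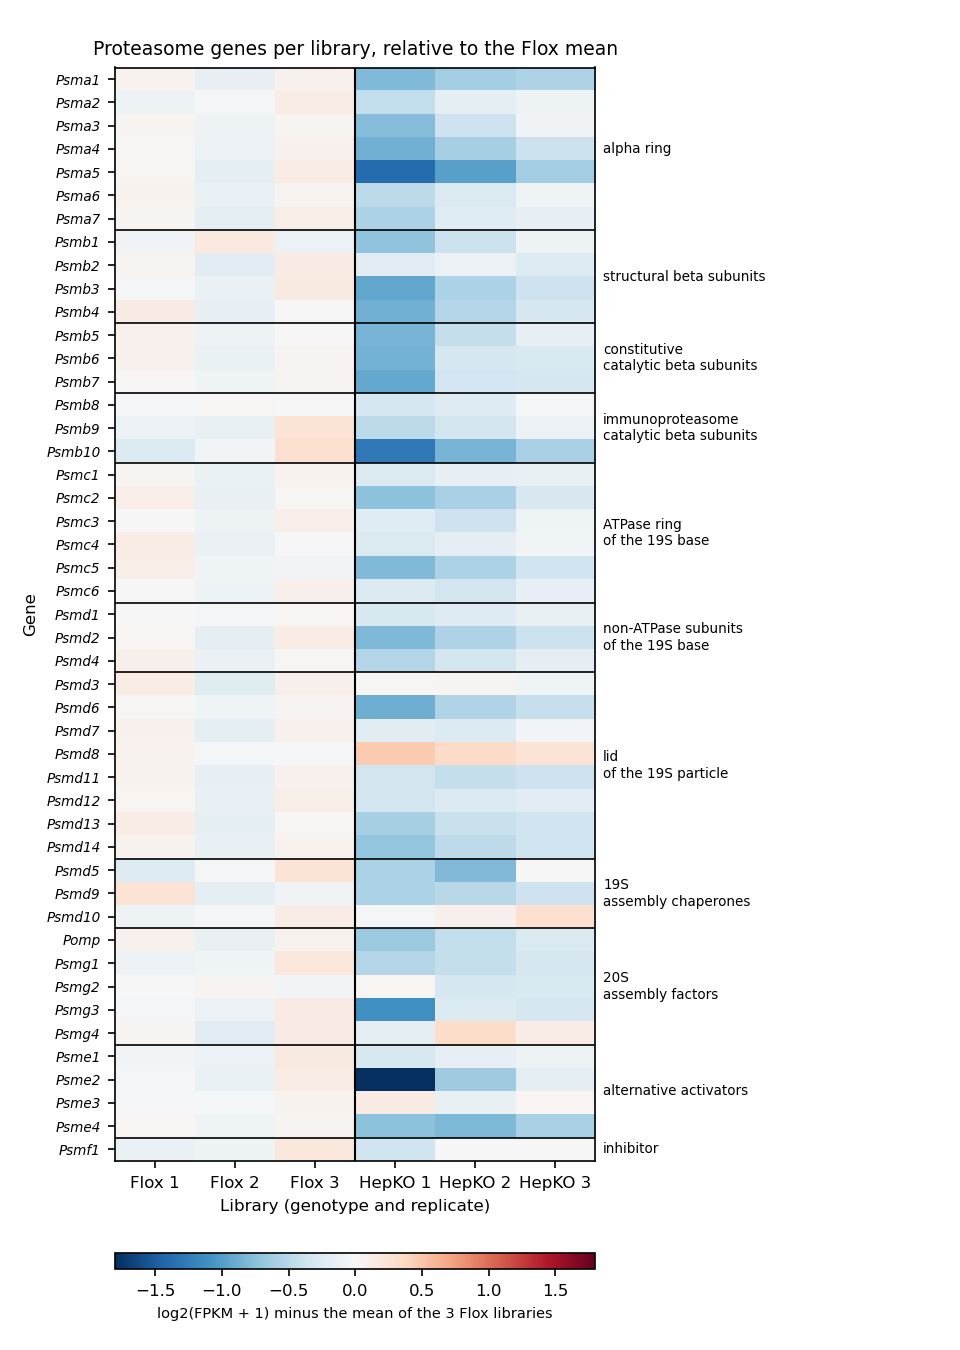
Each cell is the log2(FPKM + 1) of a gene in a library minus the mean of the 3 Flox libraries for that gene, with genes in rows by role and libraries in columns. Blue marks lower and red higher than the Flox mean. The HepKO columns are mostly blue, deepest in replicate 1, and Psmd8 is the gene that is red in all 3 of them.

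The alpha ring had 3 lower calls among its 7 tested genes (42.9%), and all 7 had a negative fold change (median -0.40). Over all tested genes 11.0% were called lower, and 18.7% of those at 10 FPKM or more. Psma5, which encodes the alpha-5 subunit (ENSMUSG00000068749, chromosome 3, 108256926 to 108279974, plus strand), had the most negative log2 fold change of all members on the log2(FPKM + 1) scale. As a ratio of mean FPKM, Psmb10 differed slightly more. Psma5 had 102, 89.0 and 110 FPKM in Flox and 37.7, 50.1 and 64.7 in HepKO livers. The groups were well separated, with the highest HepKO library below the lowest Flox library. The means differed 1.98-fold (log2 fold change -0.997, SE 0.20, limma adjusted p = 0.017). Leaving out Flox replicate 3 or HepKO replicate 2 ended the call (adjusted p = 0.061 and 0.059). A pseudogene, Psma5-ps, shares sequence with Psma5 and may share its reads. It also fell, from 11.0 to 5.70 FPKM, and the sum of both was 1.97-fold lower.

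Psma1, the alpha-1 subunit gene (ENSMUSG00000030751, chromosome 7, 114264606 to 114276118, minus strand), had 53.9, 46.5 and 54.1 FPKM in Flox and 29.3, 33.1 and 34.8 in HepKO livers. This was a tight, non-overlapping difference of 1.59-fold (log2 fold change -0.65, SE 0.11, limma adjusted p = 0.011, and 0.044 at most without 1 library). Psma4 had 76.5, 70.6 and 80.2 FPKM in Flox and 41.0, 49.9 and 57.6 in HepKO livers and fell 1.53-fold (adjusted p = 0.027). Its call was kept without HepKO replicate 1 or HepKO replicate 3 and lost without any of the other 4 libraries (adjusted p up to 0.088). The most abundant ring member, Psma6, had 144, 127 and 143 FPKM in Flox and 98.6, 114 and 130 in HepKO livers, overlapping, and did not pass (log2 fold change -0.28, 95% interval -0.58 to 0.03). Psma2, Psma3 and Psma7 did not pass either, at log2 fold changes of -0.23 to -0.40. Psma8, the alpha subunit of the testis form, had 0.039 to 0.522 FPKM across the 6 libraries and was not tested.

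The promoters of 6 members are shown because they span the responses just described: the most negative log2(FPKM + 1) fold change (Psma5), both calls that held without any 1 library (Psma1 and Psme4), a lid subunit that fell (Psmd6), the most abundant catalytic subunit (Psmb5) and the member that was higher in every HepKO library (Psmd8). Each is the 250 bases before the RefSeq start of the gene (GRCm38.p6), 5′ to 3′ on the strand of the gene, and capitals mark matches to the motifs listed after them.
Psma5: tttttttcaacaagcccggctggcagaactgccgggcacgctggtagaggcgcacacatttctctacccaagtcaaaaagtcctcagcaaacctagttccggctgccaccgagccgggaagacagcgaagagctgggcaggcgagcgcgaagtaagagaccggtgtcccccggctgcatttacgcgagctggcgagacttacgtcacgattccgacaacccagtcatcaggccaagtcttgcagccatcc
Psma1: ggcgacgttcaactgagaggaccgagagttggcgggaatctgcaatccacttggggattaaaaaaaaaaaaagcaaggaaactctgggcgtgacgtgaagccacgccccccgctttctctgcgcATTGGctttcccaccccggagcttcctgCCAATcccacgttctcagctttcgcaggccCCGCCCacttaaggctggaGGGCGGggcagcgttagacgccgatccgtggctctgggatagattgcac
Psmb5: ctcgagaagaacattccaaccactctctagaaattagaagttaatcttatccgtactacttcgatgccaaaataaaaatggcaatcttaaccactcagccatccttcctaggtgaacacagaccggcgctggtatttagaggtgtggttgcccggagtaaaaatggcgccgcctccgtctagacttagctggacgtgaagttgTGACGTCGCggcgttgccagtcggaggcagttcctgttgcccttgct
Psmd6: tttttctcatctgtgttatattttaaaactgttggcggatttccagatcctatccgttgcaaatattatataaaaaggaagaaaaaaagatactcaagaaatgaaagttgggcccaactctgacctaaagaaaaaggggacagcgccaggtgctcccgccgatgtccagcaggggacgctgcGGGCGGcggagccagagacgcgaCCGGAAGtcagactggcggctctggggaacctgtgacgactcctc
Psme4: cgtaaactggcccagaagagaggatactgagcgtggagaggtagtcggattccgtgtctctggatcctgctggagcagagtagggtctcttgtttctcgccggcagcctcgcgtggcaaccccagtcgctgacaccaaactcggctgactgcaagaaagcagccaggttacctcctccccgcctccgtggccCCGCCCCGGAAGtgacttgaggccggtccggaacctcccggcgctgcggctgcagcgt
Psmd8: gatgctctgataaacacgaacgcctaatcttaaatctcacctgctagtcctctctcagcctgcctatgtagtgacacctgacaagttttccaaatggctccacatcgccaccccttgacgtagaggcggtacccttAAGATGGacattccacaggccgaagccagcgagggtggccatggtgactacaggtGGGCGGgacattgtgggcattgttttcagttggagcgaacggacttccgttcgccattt
They lie at chr3:108256676-108256925 (Psma5, plus strand), chr7:114276117-114276366 (Psma1, minus strand), chr14:54617996-54618245 (Psmb5, minus strand), chr14:14120946-14121195 (Psmd6, minus strand), chr11:30771525-30771774 (Psme4, plus strand) and chr7:29180674-29180923 (Psmd8, minus strand).

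RefSeq promoters were matched for 41 of the 49 members, 3 of them with a pair of start sites, giving 44 windows, and in 30 members a start lay within 100 bases of the deposited one. Of 9 motifs searched on both strands, the ETS core CCGGAAG was found in 14 of the 44 member windows (31.8%), against 6.91% of all 32851 windows. It is present in Psmd6 and Psme4 above, where in Psme4 it overlaps a GC box, and not in Psma5, Psma1, Psmb5 or Psmd8. Of the 13 members that fell, 5 held it, and of the other 28 with a window, 8 did. The GC box GGGCGG was found in 54.5% of member windows and 32.7% of all windows, and the windows of members had a median GC content of 57.6% against 52.4%. The antioxidant response element core TGACNNNGC, the kind of site that NFE2L1 and NFE2L2 bind with small MAF proteins, was found in 5 windows (11.4%, against 10.2% of all), among them Psmb5. None of the 13 members that fell held it, and 5 of the other 28 with a window did. With 10.2% of all windows holding it, 13 genes are too few to read a lack from. The interferon-stimulated response element core (GAAA, any 2 bases, GAAA) was found in 3 windows (6.82%, against 2.98%). The CCAAT box was found in 14 (31.8%, against 33.8%). The NRF1 palindrome (GCGCA, any 1 base, GCGC) was found in 6 (13.6%, against 3.74%). NRF1 here is nuclear respiratory factor 1 and not NFE2L1. The E-box CACGTG was found in 4 (9.09%, against 6.02%) and the YY1 core AAGATGG in 3 (6.82%, against 4.49%). The heat shock element core (GAA, TTC and GAA with any 2 bases between them) was found in 0 (against 0.466%). A match is a run of letters and not a measured binding site.

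The structural beta subunits Psmb1 to Psmb4 had 1 call among 4 (25%, against 18.7% of tested genes at 10 FPKM or more). Their median was -0.48. Psmb3 had 70.1, 66.3 and 80.6 FPKM in Flox and 37.2, 48.3 and 55.7 in HepKO livers and fell 1.54-fold (adjusted p = 0.041), a call kept only without HepKO replicate 3 and otherwise lost when 1 library was left out (adjusted p up to 0.12). The more abundant Psmb4 had 138, 113 and 125 FPKM in Flox and 68.3, 86.6 and 101 in HepKO livers. Its groups did not overlap, and it missed the threshold (adjusted p = 0.055).

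The 3 constitutive catalytic subunits were lower by similar amounts without passing. Psmb5, the chymotrypsin-like subunit and the most abundant of all members, had 204, 181 and 195 FPKM in Flox and 107.5, 143 and 174 in HepKO livers. Psmb6, the caspase-like subunit, had 91.1, 80.1 and 89.3 FPKM in Flox and 47.5, 69.1 and 71.8 in HepKO livers. Psmb7, the trypsin-like subunit, had 54.7, 51.4 and 56.1 FPKM in Flox and 28.0, 42.4 and 43.7 in HepKO livers. In each of the 3 genes every HepKO library lay below every Flox library, and HepKO replicate 1 was the lowest. In Psmb6 and Psmb7 that replicate lay far below the other HepKO libraries, and in Psmb5 the HepKO libraries were spread more evenly. The log2 fold changes were -0.47, -0.48 and -0.52 with 95% intervals of -0.90 to -0.04, -0.89 to -0.07 and -0.95 to -0.10 (limma adjusted p = 0.11, 0.095 and 0.085). Psmb5 was called when HepKO replicate 3 was left out (adjusted p = 0.045).

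The immunoproteasome subunits were scarce in all 6 livers, and Psmb10 was the one that fell. Psmb10 (ENSMUSG00000031897, chromosome 8, 105935735 to 105938104, minus strand) had 7.75, 9.04 and 11.8 FPKM in Flox and 3.28, 4.80 and 5.91 in HepKO livers. No HepKO library reached the lowest Flox library, and the means differed 2.05-fold (log2 fold change -0.91, SE 0.22, limma adjusted p = 0.030). Leaving out Flox replicate 2, Flox replicate 3, HepKO replicate 1 or HepKO replicate 2 ended the call (adjusted p = 0.081, 0.086, 0.066 and 0.079). Psmb8 had 2.38, 2.46 and 2.41 FPKM in Flox and 1.78, 1.90 and 2.35 in HepKO livers, a small difference without overlap that did not pass (log2 fold change -0.19, adjusted p = 0.26). Psmb9 had 0.973, 0.937 and 1.51 FPKM in Flox and 0.535, 0.690 and 0.976 in HepKO livers, overlapping (log2 fold change -0.30, adjusted p = 0.21). Psmb8 and Psmb9 lie in the MHC region of chromosome 17 next to the peptide transporter genes, and exons of Psmb9 overlap those of Tap1 on the other strand, so their reads can be split only if strand was used.

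As a ratio of FPKM within a library, Psmb8 stood at 1.17% to 1.36% of Psmb5 in Flox and 1.33% to 1.65% in HepKO livers. Psmb9 stood at 1.07% to 1.70% of Psmb6 in Flox and 0.998% to 1.36% in HepKO livers. Psmb10 stood at 14.2%, 17.6% and 21.0% of Psmb7 in Flox and 11.7%, 11.3% and 13.5% in HepKO livers, so that this ratio was lower in every HepKO library. On the log2(FPKM + 1) scale the differences of HepKO minus Flox were 0.28 for Psmb8 to Psmb5, 0.18 for Psmb9 to Psmb6 and -0.38 for Psmb10 to Psmb7. Exact two-sided permutation tests gave p = 0.10, 0.40 and 0.10 (adjusted over the 3 ratios, 0.15, 0.40 and 0.15), and 3 against 3 libraries cannot go below 0.10. On this scale the Psmb8 to Psmb5 groups were separate by a narrow margin, -5.711 in HepKO replicate 3 against -5.716 in Flox replicate 2. As plain FPKM ratios they overlapped, at 1.36% in Flox replicate 2 against 1.33% and 1.35% in HepKO replicates 2 and 3. The p of 0.10 for Psmb8 to Psmb5 therefore rests on the pseudocount. For Psmb9 the sign of the difference depends on the pseudocount, and it was -0.090 with a pseudocount of 0.1.

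**Figure D3:**
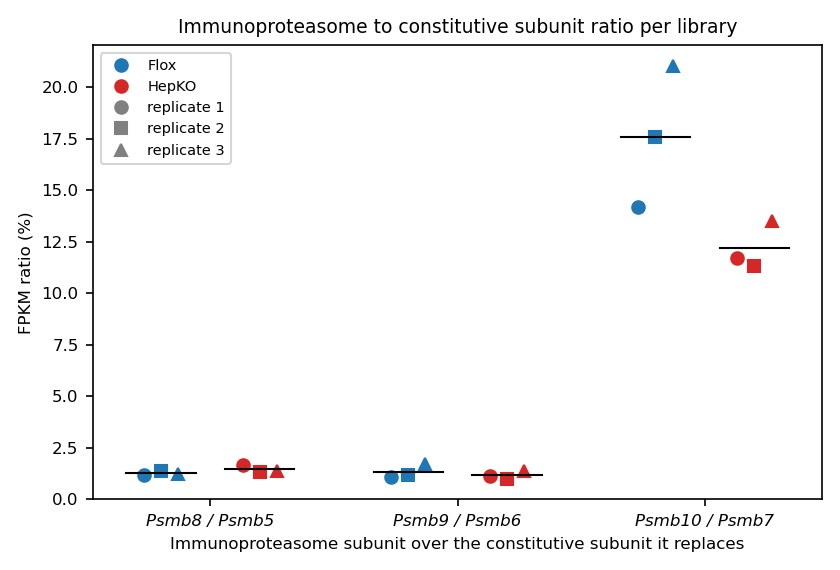
Ratio of FPKM of each immunoproteasome subunit to the constitutive subunit it replaces (vertical axis, percent), 1 point per library with the marker shape giving the replicate number, and the group mean as a line. Psmb10 to Psmb7 is 11.3% to 13.5% in HepKO against 14.2% to 21.0% in Flox livers, and the other 2 ratios stay below 2%.

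Leukocyte markers rose in the livers in which Psmb10 fell. The summed level of the 8 pan-leukocyte markers was 20.01 to 32.7 FPKM in Flox and 60.7 to 76.8 FPKM in HepKO livers, and that of the 8 neutrophil markers 10.5 to 20.2 and 132 to 158 FPKM. Of 6 Kupffer cell markers 1 rose, the scavenger receptor Marco, and the 8 markers of T, NK and B cells were too low to test, with sums of 0.162 to 1.498 FPKM in Flox and 0.435 to 1.03 FPKM in HepKO livers and Ms4a1 at 0 in every library. The part of these cells in the levels of Psmb8, Psmb9 and Psmb10 was not tested. Of the genes of the interferon response, the kinase gene Jak2 rose from 3.27 to 4.79 FPKM (adjusted p = 0.022), and was called only without HepKO replicate 1 or HepKO replicate 3 of the 6 fits (adjusted p 0.050 to 0.085 in the others). Irf1, which drives Psmb9 and Tap1, did not pass (adjusted p = 0.96). Of 10 genes that load MHC class I, the chaperone Canx and the trimming peptidase Erap1 fell 1.54-fold and 1.60-fold and 8 did not pass. Canx was not called when Flox replicate 2, Flox replicate 3 or HepKO replicate 2 was left out (adjusted p up to 0.064), and Erap1 was called only without Flox replicate 1 (adjusted p up to 0.13 otherwise). Psmb11, the catalytic subunit of the thymus, had at most 0.047 FPKM and was not tested.

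The ATPase ring had 2 lower calls among 6 (33.3%, against 18.7% of tested genes at 10 FPKM or more). All 6 fold changes were negative, with a median of -0.23. Psmc5 had 90.2, 78.7 and 80.5 FPKM in Flox and 47.4, 55.5 and 64.8 in HepKO livers and fell 1.49-fold (adjusted p = 0.030). Psmc2 had 31.2, 25.9 and 28.9 FPKM in Flox and 16.8, 18.7 and 23.3 in HepKO livers and fell 1.46-fold (adjusted p = 0.044). Neither pair of groups overlapped, and both calls were kept only without HepKO replicate 3 (adjusted p up to 0.091 and 0.13 without 1 other library). Psmc1, the most abundant ATPase gene, had 101, 90.0 and 102 FPKM in Flox and 81.7, 88.0 and 89.2 in HepKO livers, separate by a narrow margin, and did not pass (log2 fold change -0.18, 95% interval -0.41 to 0.06). Psmc3, Psmc4 and Psmc6 lay between -0.16 and -0.24 and did not pass.

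Among the other subunits of the base, Psmd2, a scaffold that binds substrate shuttles, fell. It had 73.4, 63.3 and 78.1 FPKM in Flox and 40.2, 48.3 and 54.3 in HepKO livers, 1.51-fold apart and not overlapping (adjusted p = 0.033, up to 0.11 without 1 library, and kept only without HepKO replicate 3). Psmd4, a ubiquitin receptor, had 68.3, 58.8 and 64.8 FPKM in Flox and 44.2, 50.6 and 56.4 in HepKO livers. It did not pass (adjusted p = 0.098), and neither did Psmd1 (adjusted p = 0.14), although in both genes the groups did not overlap.

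The lid held 4 lower calls among 8 genes (50%, against 18.7% of tested genes at 10 FPKM or more). Its median was -0.32, and it also held the member that was higher in HepKO livers. Psmd6 had 37.7, 34.9 and 38.5 FPKM in Flox and 19.7, 25.1 and 27.5 in HepKO livers and fell 1.54-fold (adjusted p = 0.026). Psmd14, the deubiquitinase of the lid, had 39.3, 34.4 and 39.7 FPKM in Flox and 22.7, 26.9 and 29.2 in HepKO livers and fell 1.44-fold (adjusted p = 0.032). Psmd13 had 31.2, 25.2 and 28.9 FPKM in Flox and 18.3, 21.2 and 21.9 in HepKO livers and fell 1.39-fold (adjusted p = 0.044). Its exons overlap those of Sirt3 on the other strand, and its call was lost without any 1 of the 6 libraries (adjusted p 0.059 to 0.12).

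Psmd11 had 26.7, 22.8 and 26.8 FPKM in Flox and 19.96, 18.5 and 19.4 in HepKO livers, the smallest of the called falls at 1.32-fold (adjusted p = 0.046). That call too was lost without any 1 library (adjusted p 0.057 to 0.15). The Psmd6 call was kept without HepKO replicate 1 or HepKO replicate 3, and that of Psmd14 only without HepKO replicate 3 (adjusted p up to 0.083 and 0.10). Psmd8, the most abundant lid gene (ENSMUSG00000030591, chromosome 7, 29174188 to 29180673, minus strand), ran against the others. It had 77.8, 73.5 and 72.8 FPKM in Flox and 104, 95.3 and 88.5 in HepKO livers, with all HepKO libraries above all Flox libraries and the highest level in HepKO replicate 1. Its log2 fold change of 0.35 (SE 0.10) lay at the threshold (limma adjusted p = 0.0502), and whether it passed depended on the setting. It passed with a pseudocount of 0.5 (adjusted p = 0.0495), after median-ratio rescaling (0.038) and without HepKO replicate 3 (0.0496). It did not pass with all genes at a common sum (0.088), with no filter (0.066) or without any 1 of the other 5 libraries (0.073 to 0.15). Psmd3 (-0.01), Psmd7 (-0.17) and Psmd12 (-0.25) did not pass, and Psmd3 was positive after median-ratio rescaling (0.11).

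**Figure D4:**
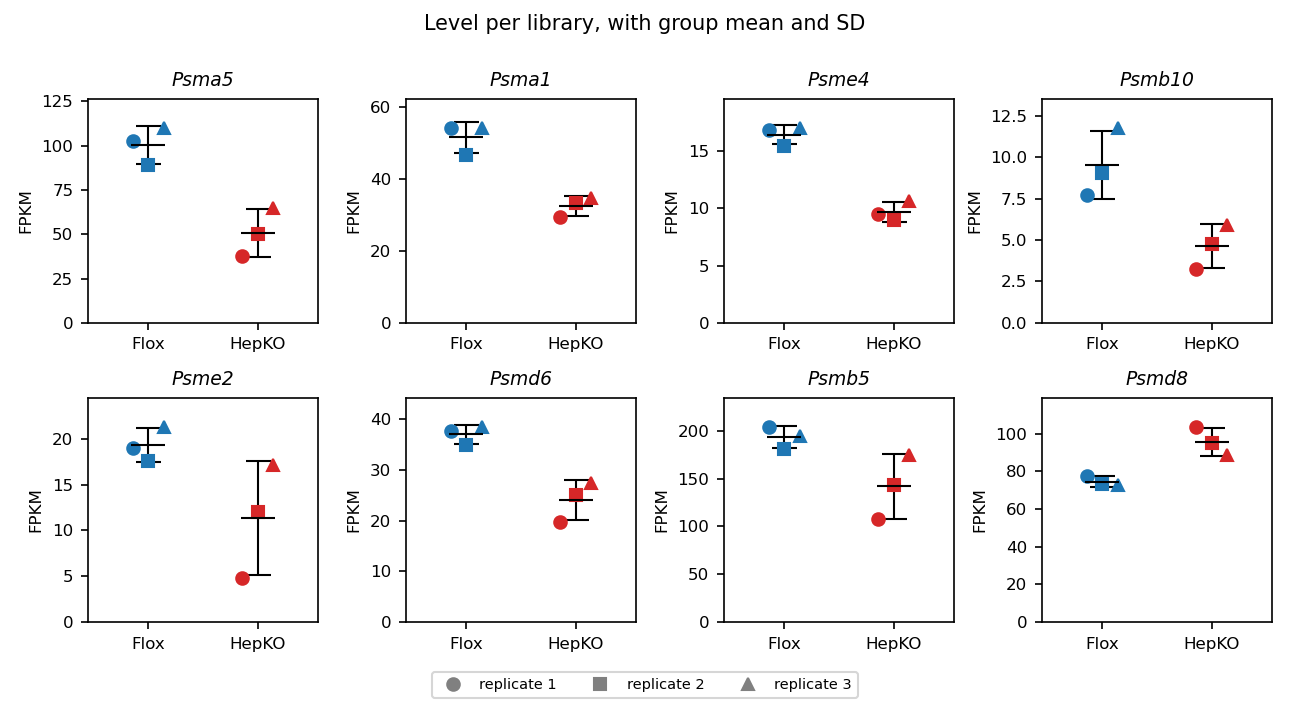
FPKM of 8 proteasome genes in each library (vertical axes start at 0), with the marker shape giving the replicate number and black bars the group mean and SD of 3 libraries. HepKO replicate 1 is the lowest HepKO point for Psma5, Psma1, Psmb10, Psme2, Psmd6 and Psmb5 and the highest for Psmd8.

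Assembly factors had 0 calls among 8, where 11.0% of all tested genes were called lower and 9.33% higher. With 8 genes, 0 calls does not set them apart from those shares. In 4 of them every HepKO library lay below every Flox library (50%, against 25.2% of all tested genes). Pomp, the maturation factor of the core particle, had 22.9, 19.7 and 22.7 FPKM in Flox and 13.2, 15.7 and 17.9 in HepKO livers, separate and just over the threshold (log2 fold change -0.46, SE 0.13, limma adjusted p = 0.055, and 0.040 without HepKO replicate 3). Psmg1, which pairs with Psmg2 to assemble the alpha ring, and Psmd9, a chaperone of the 19S base, also missed narrowly (adjusted p = 0.052 and 0.051). Psmg3 had 4.19, 3.95 and 4.93 FPKM in Flox and 1.49, 3.49 and 3.33 in HepKO livers, where replicate 1 set the low end. Psmd5 and Psmg2 did not pass, with negative fold changes, and Psmg4 and Psmd10 (gankyrin) had 0.10 and 0.13 on the log2 scale and did not pass. Psmd10 was the most abundant 19S chaperone, at 8.33, 8.69 and 9.96 FPKM in Flox and 8.87, 9.59 and 11.3 in HepKO livers.

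Activators that can replace the 19S particle differed among themselves. Psme4, which encodes PA200, a nuclear activator (ENSMUSG00000040850, chromosome 11, 30771726 to 30880361, plus strand), had 16.8, 15.4 and 17.0 FPKM in Flox and 9.47, 8.94 and 10.7 in HepKO livers. Both groups were tight and far apart, 1.70-fold (log2 fold change -0.71, SE 0.10), and the adjusted p of 0.0059 was the smallest of all members and 0.031 at most without 1 library. Psme3, which encodes another nuclear activator, PA28 gamma, had 30.6, 30.6 and 32.7 FPKM in Flox and 34.7, 28.4 and 32.0 in HepKO livers. These overlap, and the log2 fold change was 0.01 with a 95% interval of -0.24 to 0.27.

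Psme1 and Psme2, neighbours on chromosome 14, encode the interferon-inducible activator PA28. Psme1 had 18.5, 17.9 and 21.6 FPKM in Flox and 15.6, 17.2 and 18.0 in HepKO livers, overlapping (log2 fold change -0.18, adjusted p = 0.30). Psme2 had 19.04, 17.6 and 21.3 FPKM in Flox and 4.84, 12.04 and 17.2 in HepKO livers, with replicate 1 far below the rest. The Psme2 groups did not overlap, and the spread among HepKO livers left a 95% interval of -1.78 to 0.06 around a log2 fold change of -0.86 (adjusted p = 0.16), which was -0.40 without HepKO replicate 1. Psme2b, a near-identical copy on chromosome 11, had 17.4, 29.4 and 29.4 FPKM in Flox and 20.9, 16.8 and 17.5 in HepKO livers. Reads may be split between the copies, and their sum was 36.5, 47.0 and 50.6 FPKM in Flox and 25.8, 28.8 and 34.7 in HepKO livers. Psmf1, which encodes the inhibitor PI31, had 3.69, 3.79 and 4.88 FPKM in Flox and 2.97, 4.05 and 4.12 in HepKO livers and did not pass (adjusted p = 0.60).

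By role, the median log2 fold change was -0.48 for the structural beta and for the constitutive catalytic subunits, -0.45 for 19S chaperones, -0.44 for activators, -0.42 for 20S assembly factors, -0.40 for the alpha ring, -0.34 for the other base subunits, -0.32 for the lid, -0.30 for the immunoproteasome subunits and -0.23 for the ATPases. The immunoproteasome median rests on low levels and depends on the pseudocount. With a pseudocount of 0.1 it was -0.58, against -0.33 for the lid and -0.24 for the ATPases. The summed FPKM of the immunoproteasome subunits, of which Psmb10 is the largest part, was a mean 43.4% lower in HepKO livers. These role groups were not tested against each other. Summed FPKM of the constitutive 20S subunits was 1153, 1027 and 1162 in Flox and 652, 823 and 929 in HepKO livers, a mean 28.1% lower. That of the 17 subunits of the 19S particle was 945, 828 and 928 in Flox and 714, 748 and 803 in HepKO livers, a mean 16.1% lower. In both sums the highest HepKO library lay below the lowest Flox library. Among the subunit groups the lid sum differed least, by a mean 9.46%, and in it Psmd8 gave 74.7 FPKM in Flox and 95.8 in HepKO livers.

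Genes that act around the proteasome moved in both directions. Of 9 genes that control proteasome transcription, 4 rose and 2 fell. Maff and Mafk, small MAF partners of NFE2L1 and NFE2L2, rose 4.13-fold and 2.53-fold (adjusted p = 0.00096 and 0.0034), and both calls held without any 1 library. The repressor Bach1 rose 1.82-fold (adjusted p = 0.025, and 0.060 to 0.082 without Flox replicate 2, Flox replicate 3 or HepKO replicate 2). Ddi2, the protease that activates NFE2L1, had 14.5, 13.8 and 12.8 FPKM in Flox and 8.67, 8.41 and 9.64 in HepKO livers and fell 1.54-fold (adjusted p = 0.011, and 0.053 without HepKO replicate 2). Named after their values were seen, Nfe2l2 rose from 17.1 to 24.2 FPKM (adjusted p = 0.017, and 0.055 and 0.064 without Flox replicate 2 or Flox replicate 3). Ngly1, whose enzyme also processes NFE2L1, fell from 5.10 to 3.42 FPKM (adjusted p = 0.043), a call kept only without HepKO replicate 3. Nfe2l1 itself had 3.38, 2.84 and 3.13 FPKM in Flox and 2.85, 15.9 and 2.72 in HepKO livers, with replicate 2 far above the other libraries, and its adjusted p was 0.48.

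The polyubiquitin gene Ubb had 634, 393 and 409 FPKM in Flox and 888, 798 and 856 in HepKO livers and rose 1.77-fold (adjusted p = 0.025), a call kept only without Flox replicate 1 (adjusted p up to 0.083 otherwise). Among 11 other proteasome components and associated factors, the proteasome-binding Zfand5 rose 2.72-fold (adjusted p = 0.0089) with its call held without any 1 library, and the scaffold Ecpas fell 1.47-fold (adjusted p = 0.033), a call kept only without HepKO replicate 3. The remaining 9, among them the receptor Adrm1 and the lid subunit Sem1, did not pass. Of 14 genes of substrate delivery, Ddi2, which is in this list too, fell and 13 did not pass, with a median of -0.25.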

How the data were processed

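Total RNA of whole liver was poly(A)-selected and sequenced as dUTP-marked paired reads, per the labels' protocols. The authors deposited FPKM per gene and library, with their own p-value and q-value columns, per the file headers. HISAT2 2.0.4, StringTie 1.3.4d, cutadapt 1.9, edgeR and DESeq2 are named, with no roles, in the submitters' processing notes. The build and the use of strand are not given in the sources used here. All 49 member identifiers are in GENCODE M21 (GRCm38), 42 with the same start and end. FPKM do not give depth, so no count test was run.

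The limma model (limma 3.58.1, R 4.3.3) held genotype alone and took log2(FPKM + 1) of genes whose mean reached 0.5 FPKM, with a variance trend and Benjamini-Hochberg adjustment. Folds are ratios of mean FPKM. The fit was tested on simulated data. Ratios were compared with exact permutation tests (scipy 1.17.1). Figures were drawn with matplotlib 3.10.9. Members and lists were chosen with earlier results of these data known. Named in full are Psmb5 to Psmb10, Psme1, Psme2, Pomp, the most abundant member of each role and up to 4 called members per role. Of other genes, up to 4 called per list were named. Alternatives changed the pseudocount, filter, scaling, limma settings or threshold, added a replicate block or left out 1 library. Promoters are from RefSeq (GRCm38.p6). Some genes of the lists are not reported here.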

Additional observations from a re-analysis of the deposited data

How the results depend on the processing

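Of 13 members called lower, 3 were left with no filter on low FPKM (6.12% of members, against 3.40% of the 26473 genes then tested). At an adjusted p of 0.1, 20 members were lower, and at 0.01, 1 was. The shares of all genes at these thresholds are not given here, so these counts cannot be set against them. Leaving out 1 library gave 2 to 14. The count of members called higher, 0 by limma with 1 higher at an unadjusted p under 0.05, became 1 (Psmd8) with a pseudocount of 0.1 or 0.5, a filter at 1 FPKM, median-ratio rescaling, a common sum without abundant and mitochondrial genes or a threshold of 0.1, and 0 to 1 without 1 library. The replicate block gave 4 lower (8.51% of members, against 6.10% of all genes) and 0 higher. Same-numbered libraries did not deviate together over all genes (r = 0.0029, 0.0021 and -0.025 over 12712 genes). With 3 libraries per group, that check cannot tell whether they were paired. The log2 ratio of Psmb9 to Psmb6 was -0.090 with a pseudocount of 0.1, against 0.18. The log2 fold change of Psme3 was -0.043 with all genes scaled to a common sum, and -0.051 to 0.089 without 1 library, against 0.01. The causes were not tested. Of the other alternative fits of 28 named members, 357 kept side and direction, 75 lost a call and 11 gained one. Depth is unknown, so levels under 1 FPKM, as in Psmb9, carry an unknown counting error.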
